A study of Mus musculus with 12 samples.

Results

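Proteases that cut the extracellular matrix, the inhibitors that hold them in check and the enzymes that crosslink collagen and elastin were followed in the calf muscle of diabetic mice. They were chosen by symbol, as Mmp, Timp, Adamts, Adamtsl or Loxl with a number, or Lox. The rule used no measured value, but it was set with earlier results of these data known. The rule gave 54 genes of 23185 named genes on the arrays, each with 1 probe set: 22 matrix metalloproteinase genes (Mmp), 4 tissue inhibitors of metalloproteinases (Timp), 18 Adamts proteases, 5 Adamts-like genes and 5 lysyl oxidase genes. Of these, 1 was called in any comparison, Timp1, an inhibitor, which was higher in muscle that had received both shRNA viruses than in control muscle.

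The arrays measured gastrocnemius, a fast calf muscle, from 12 mice of the strain BKS.Cg-Dock7m +/+ Leprdb/J. These db/db mice lack a working leptin receptor, are obese and diabetic, and carried this genotype in every group, so no lean animal serves as a reference. All were 12 weeks old and had been given adenovirus that makes a short hairpin RNA (shRNA), which lowers a chosen transcript; muscle was taken 1 week after the virus. Control animals (18, 19 and 20) had control shRNA virus alone. LCN13 shRNA animals (21, 22 and 23) and TSC22D4 shRNA animals (25, 26 and 27) had the target virus mixed with an equal amount of control virus, and TSC22D4+LCN13 shRNA animals (29, 30 and 32) had equal amounts of the 2 target viruses and no control virus. These 3 animals per group came from 7 treated and had been picked as representative, by criteria that the labels do not state, and the labels do not say which tissue the virus entered. Here LCN13 names a secreted lipocalin and TSC22D4 a transcriptional regulator.

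Matrix metalloproteinases are zinc-dependent enzymes that are made as inactive precursors and cleave collagens, gelatin, laminin and other matrix proteins once their propeptide is removed. Timp proteins bind the active site and block it; Timp3 also inhibits several Adamts enzymes, which cleave proteoglycans or trim procollagens. Adamts-like proteins share the ancillary domains of Adamts enzymes and lack the protease domain, and lysyl oxidases oxidise lysines of collagen and elastin so that the fibres crosslink. In skeletal muscle most of this set is made by fibroblasts, blood vessel cells, tendon cells and macrophages between the fibres, and it takes part in repair and fibrosis.

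Where the start of a gene is covered by a RefSeq promoter table (GRCm38.p6; 250 bases before to 50 bases after the annotated start), its sequence was searched. The windows below are those of the inhibitors Timp1 and Timp2 and of the neighbouring proteases Mmp12 and Mmp13. Of the exact motifs searched, the shown Timp windows carry a GC box alone and the shown Mmp windows an AP-1 motif with a TATA box. These are the layouts that the comparison of the genes turns on. They do not hold for every member, as the window of Timp4, not shown, had no exact match. The Timp1 window lies at chrX:20869916-20870215 on the plus strand and that of Timp2 at chr11:118355362-118355661 on the minus strand. The windows of Mmp12, the 1 of its 2 that holds a motif, and Mmp13 lie at chr9:7347124-7347423 and chr9:7272264-7272563, both on the plus strand. Each reads 5′ to 3′ along the gene, and capitals mark a GC box (GGGCGG), an AP-1 motif (TGANTCA) or a TATA box (TATAAA), found on either strand. Only these exact letters were searched, with N as any base. Variants, such as tgagtaa in the Timp1 window, were neither marked nor counted, so a gene without a match may still hold a variant.
Timp1: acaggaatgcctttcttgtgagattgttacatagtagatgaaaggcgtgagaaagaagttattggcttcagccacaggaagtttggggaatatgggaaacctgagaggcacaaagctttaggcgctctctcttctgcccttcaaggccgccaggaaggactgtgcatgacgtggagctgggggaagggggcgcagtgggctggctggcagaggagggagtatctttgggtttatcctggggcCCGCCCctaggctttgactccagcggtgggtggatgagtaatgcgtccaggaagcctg
Timp2: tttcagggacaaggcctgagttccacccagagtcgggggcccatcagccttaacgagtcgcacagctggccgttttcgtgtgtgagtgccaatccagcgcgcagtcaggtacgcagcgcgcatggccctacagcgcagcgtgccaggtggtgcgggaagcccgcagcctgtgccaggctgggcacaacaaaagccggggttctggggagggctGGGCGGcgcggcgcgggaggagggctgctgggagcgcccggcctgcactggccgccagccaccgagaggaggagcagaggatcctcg
Mmp12: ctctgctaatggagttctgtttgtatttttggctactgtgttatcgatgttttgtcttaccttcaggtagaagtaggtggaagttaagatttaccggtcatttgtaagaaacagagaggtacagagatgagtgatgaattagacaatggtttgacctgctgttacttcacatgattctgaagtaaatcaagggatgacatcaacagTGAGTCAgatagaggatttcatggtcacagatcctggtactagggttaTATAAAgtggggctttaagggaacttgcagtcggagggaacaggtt
Mmp13: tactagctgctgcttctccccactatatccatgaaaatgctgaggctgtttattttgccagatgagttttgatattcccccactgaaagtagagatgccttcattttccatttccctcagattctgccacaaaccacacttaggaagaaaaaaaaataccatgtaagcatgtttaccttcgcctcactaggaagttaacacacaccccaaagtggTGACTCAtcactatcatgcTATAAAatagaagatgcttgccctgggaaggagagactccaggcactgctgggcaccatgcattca
The capitals in Timp1 and Timp2 are 1 GC box each, and those in Mmp12 and Mmp13 are 1 AP-1 motif followed by 1 TATA box. AP-1 letters began 44 bases before the annotated start of Mmp12 and 35 bases before that of Mmp13. On the same count the TATA box began at 16 for Mmp13 and at −4, past the annotated start, for Mmp12. AP-1 is the Fos and Jun factor, known as a regulator of collagenase and stromelysin genes; a run of matching letters is a description of the sequence and not a measured binding site.

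Promoter windows were found for 35 of the 54 genes. In RefSeq, 10 of the Mmp genes follow each other without another protein-coding gene between them, in the order Mmp13, Mmp12, Mmp1b, Mmp3, Mmp1a, Mmp10, Mmp8, Mmp27, Mmp20 and Mmp7. An exact AP-1 match stood in a window of 8 of these 10 genes and in 0 of the other 25 genes with a window. The share was 8.97% over all 27025 genes with a window of this length. The TATA box was found in 9 of the 10 and in 3 of the 25, against 15.7% of all genes with a window. GC boxes showed the reverse layout, with 0 of the 10 neighbours, 21 of the 25 others and 38.2% of all genes with a window. Median GC content was 41.7% in the windows of the neighbours and 65.3% in those of the other members. These 10 genes arose as copies of one another, so their shared letters are not independent observations.

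Levels are log2 values from RMA, a method that corrects background, makes the arrays' distributions equal and summarises the probes of a set. A level of 1 probe set cannot be ranked against that of another, because probes differ in how strongly they bind. An array floor was therefore set from 1389 genes for olfactory, vomeronasal and bitter taste receptors, which muscle is not known to use, at the 95th percentile of their means, 5.27. By this measure 12 of the 54 members (22.2%) were at or below the floor, against 38.9% of all named genes. The number was 12 in control, 13 after LCN13 shRNA, 13 after TSC22D4 shRNA and 12 after both. Using the 99th percentile of the receptor genes, 5.79, the share was 57.4% for the members and 58.3% for all genes, so the lower share among members depends on where the floor is drawn.

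Among the 12 members at or below the floor were all 4 collagenases (Mmp1a, Mmp1b, Mmp8 and Mmp13), which cut fibrillar collagen. Of the stromelysins and matrilysin, which cleave other matrix proteins and activate other Mmp enzymes, 3 of 4 were there, Mmp3, Mmp7 and Mmp10. The remaining 5 were Mmp20, an enamel protease, Mmp21, Mmp27, Adamts18 and Adamts19. Of the 10 neighbouring Mmp genes 9 were at or below the floor; the exception was Mmp12, the macrophage elastase. Closest to the threshold were Mmp27 at a mean of 5.23 on one side and Mmp25 at 5.27 on the other.

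Above the floor were all 4 Timp genes, both gelatinases, all 6 membrane-bound Mmp genes, all 7 proteoglycan-cleaving Adamts, both procollagen N-propeptidases, all 5 Adamts-like genes and all 5 lysyl oxidases. Only 33 of the 54 were above it on each of the 12 arrays. Above the stricter floor of 5.79 were 2 of the 6 membrane-bound genes, Mmp14 and Mmp23, and 3 of the 7 proteoglycan-cleaving Adamts, Adamts1, Adamts5 and Adamts9. The lysyl oxidases and the Adamts-like genes stayed above it with 5 of 5 each.

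**Figure D1:**
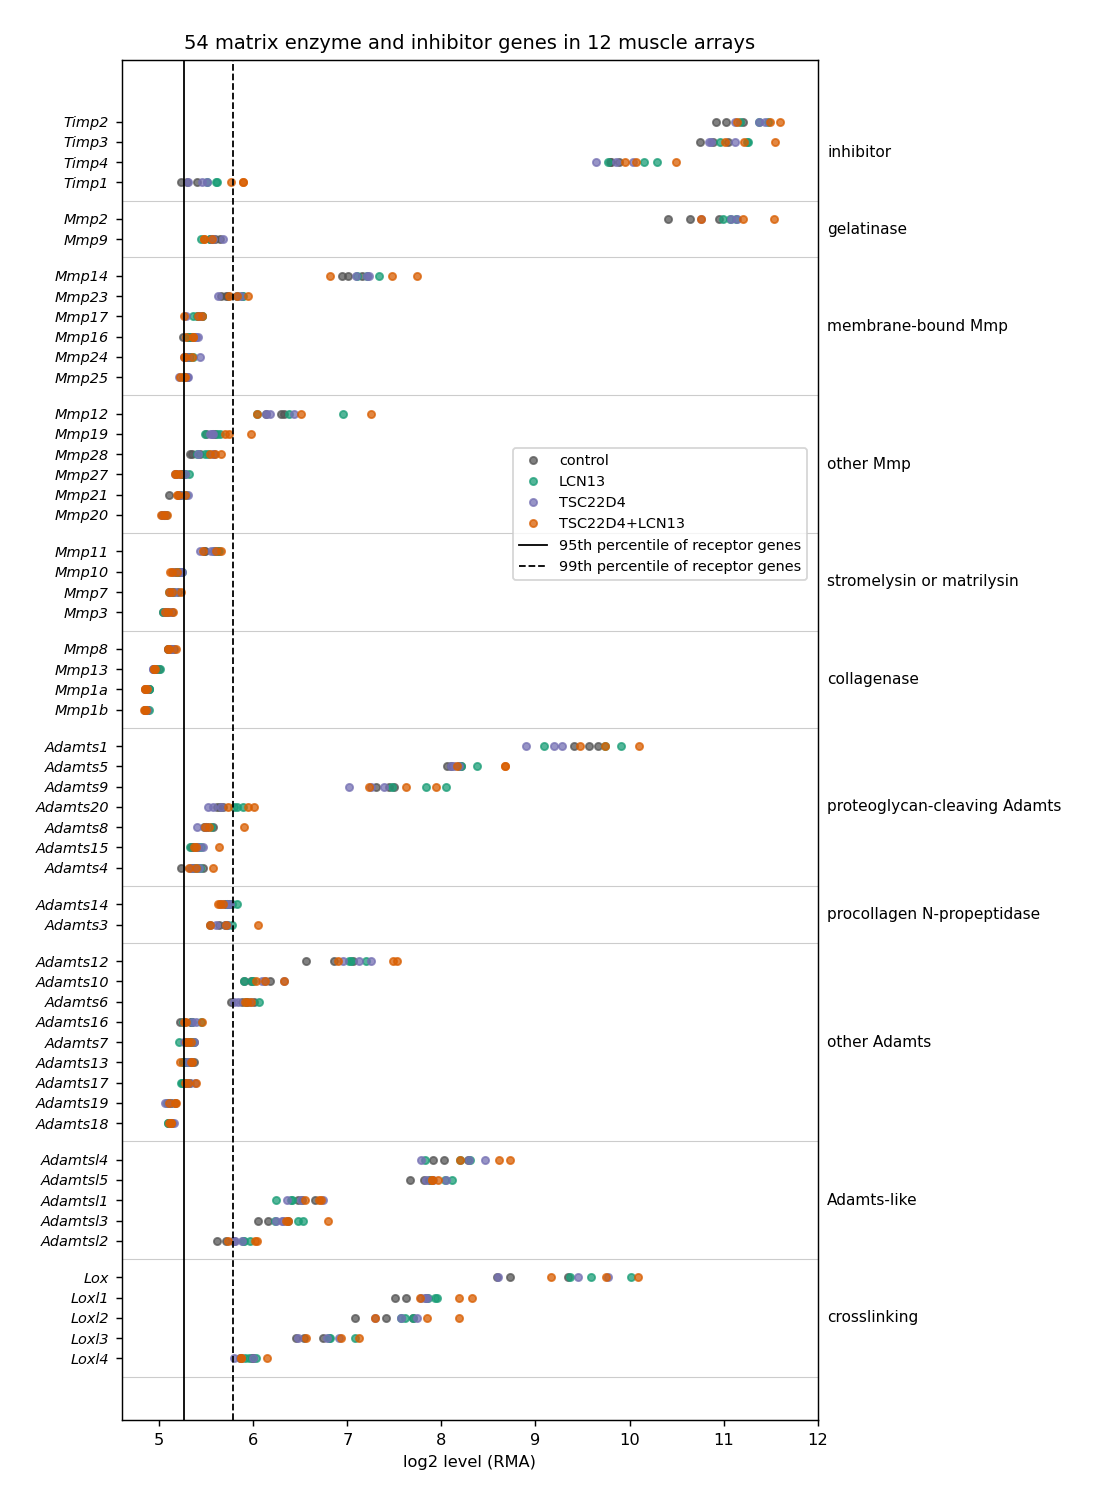
Log2 RMA level of the 54 genes (horizontal axis), one point per array coloured by shRNA group, with the genes sorted into roles. The solid line is the 95th percentile (5.27) and the dashed line the 99th percentile (5.79) of the receptor genes; the 4 collagenases lie left of both, and levels of different genes are not comparable with each other.

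The targeted transcripts and the sample's makeup were checked once. Tsc22d4 averaged 6.59 in control muscle and 6.82 in TSC22D4 shRNA muscle, so it showed no fall in this tissue. The probe set of Obp2a, the gene for LCN13, lay below the floor at 4.92 to 4.93 in every group. It was there in control muscle too, so a fall of this target could not have been seen. Skeletal muscle markers (7 of 7, all above the floor) differed little between arrays. Several lay near the highest value of the arrays, 14.09, such as Acta1 at 13.97 to 14.09 and Myh4 at 13.88 to 14.01. Differences can hardly show there, so this evenness says little about the share of muscle. Myh1 ranged from 12.81 in control animal 18 to 13.34. Scores of other cell types, each the mean log2 deviation of a marker list from its 12-array mean, were less even. The score of 6 tendon markers was −0.95 and −1.06 in control animals 18 and 20 but 0.11 in control animal 19, and ranged from 0.14 to 0.44 after LCN13 shRNA, from −0.37 to 0.31 after TSC22D4 shRNA and from 0.05 to 0.48 after both. The score of 8 fibroblast markers ranged from −0.40 to −0.18 in control, −0.04 to 0.28 after LCN13 shRNA, −0.18 to 0.10 after TSC22D4 shRNA and −0.12 to 0.55 after both. The score of 6 macrophage markers ranged from −0.29 to −0.07, −0.32 to 0.08, −0.12 to 0.03 and 0.14 to 0.73 in the same order. None of these 20 markers was at or below the floor, whereas all 6 neutrophil markers were. The score of 6 hepatocyte markers, 1 of them at or below the floor, ranged from −0.55 to 0.20 in control, −0.03 to 1.15 after LCN13 shRNA, −0.47 to −0.25 after TSC22D4 shRNA and −0.56 to 0.59 after both. In that order the score of 4 adipocyte markers ranged from −0.33 to 0.14, −0.0039 to 0.23, −0.45 to 0.02 and −0.24 to 0.85, and that of 2 Schwann cell markers from −0.49 to −0.07, −0.07 to 0.25, −0.23 to 0.15 and −0.07 to 0.61; 0 markers of these 3 lists were called. In whole muscle a higher level from more cells of a type and from more RNA per cell cannot be told apart.

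Timp1 encodes a secreted inhibitor of most Mmp enzymes that is induced in injured and inflamed tissue. Its level was 5.30, 5.40 and 5.23 in the control animals, 5.61, 5.62 and 5.51 after LCN13 shRNA, 5.31, 5.51 and 5.46 after TSC22D4 shRNA, and 5.76, 5.89 and 5.89 after both. Every animal with both viruses was above every other animal, every LCN13 shRNA animal was above every control, and TSC22D4 shRNA animals overlapped control. The group means were 5.31 ± 0.09 (SD, n = 3) in control, 5.58 ± 0.06 after LCN13 shRNA, 5.42 ± 0.10 after TSC22D4 shRNA and 5.85 ± 0.08 after both. Control animal 20 lay below the floor, and the highest array was 5.89, so the gene stood near the floor in every group.

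The difference between both viruses and control was 0.54 on the log2 scale (SE 0.06, 95% interval 0.39 to 0.68), or 1.45-fold, with an adjusted p of 0.00357 by limma with Benjamini-Hochberg adjustment over all genes. That made Timp1 1 of 54 members called, against 4.34% of all genes in this comparison (1.72% called higher). Both viruses against LCN13 shRNA alone gave 0.27 (SE 0.06, 1.21-fold, adjusted p = 0.0474), again 1 of 54 against 4.21% of all genes (1.32% called higher, 2.9% lower). A moderated F test over the 4 groups also called Timp1 alone (adjusted p = 0.0116; 3.33% of all genes).

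Other differences of Timp1 did not pass. Both viruses against TSC22D4 shRNA gave 0.42 (adjusted p = 0.136), in a comparison where 0 genes (0%) were called by limma and 2434 had an unadjusted p below 0.05. LCN13 shRNA against control gave 0.27 (adjusted p = 0.102) and TSC22D4 shRNA against control 0.11 (adjusted p = 0.676). The interaction was 0.16 (adjusted p = 0.639). It asks whether TSC22D4 virus in place of control virus moved the gene by more beside LCN13 virus than beside control virus.

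The call against control held with each of the 12 arrays left out in turn (adjusted p 0.00354 to 0.0167) but not with the tendon score as a covariate, where the difference was 0.38 (adjusted p = 0.0805). The call against LCN13 shRNA held only without control animal 19 or TSC22D4 animal 25 (adjusted p 0.0386 to 0.128 over the 12 fits); it was lost without any one of the other 10. With the tendon covariate it stood at 0.26 (adjusted p = 0.0206). Among the macrophage markers Mrc1 (0.81, adjusted p = 0.02) and Adgre1 (0.49, adjusted p = 0.0405) were called higher with both viruses than in control, as 2 of 6, and 0 of 6 tendon and 0 of 8 fibroblast markers were; their part in the Timp1 difference was not tested. Mrc1 was called in 9 and Adgre1 in 2 of the 12 fits with an array left out, and adjusted for the tendon score they stood at 0.69 (adjusted p = 0.25) and 0.50 (adjusted p = 0.284). RefSeq places Timp1 inside Syn1, a neuronal gene, whose own probe set differed by −0.02 (adjusted p = 0.779) between both viruses and control.

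Timp2, Timp3 and Timp4 were well above the floor on every array. Timp2, which also helps Mmp14 activate Mmp2, read 10.92, 11.20 and 11.02 in control, 11.47, 11.18 and 11.38 after LCN13 shRNA, 11.12, 11.37 and 11.44 after TSC22D4 shRNA, and 11.14, 11.60 and 11.49 after both. Timp3, the matrix-bound inhibitor, read 10.75, 10.89 and 11.04, then 10.96, 11.26 and 11.25, then 10.87, 10.85 and 11.12, and 11.22, 11.55 and 11.02 in that order of groups. Timp4, known from heart and muscle, read 9.79, 9.89 and 9.80, then 9.77, 10.30 and 10.15, then 9.64, 9.86 and 10.04, and 10.06, 10.49 and 9.96. Groups overlapped for Timp2 and Timp3, and for Timp4 the animals with both viruses were all above the controls but not above the single-virus animals. Differences of both viruses from control were 0.36 for Timp2 (adjusted p = 0.16), 0.37 for Timp3 (adjusted p = 0.181) and 0.34 for Timp4 (adjusted p = 0.284). None of the 3 passed.

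**Figure D2:**
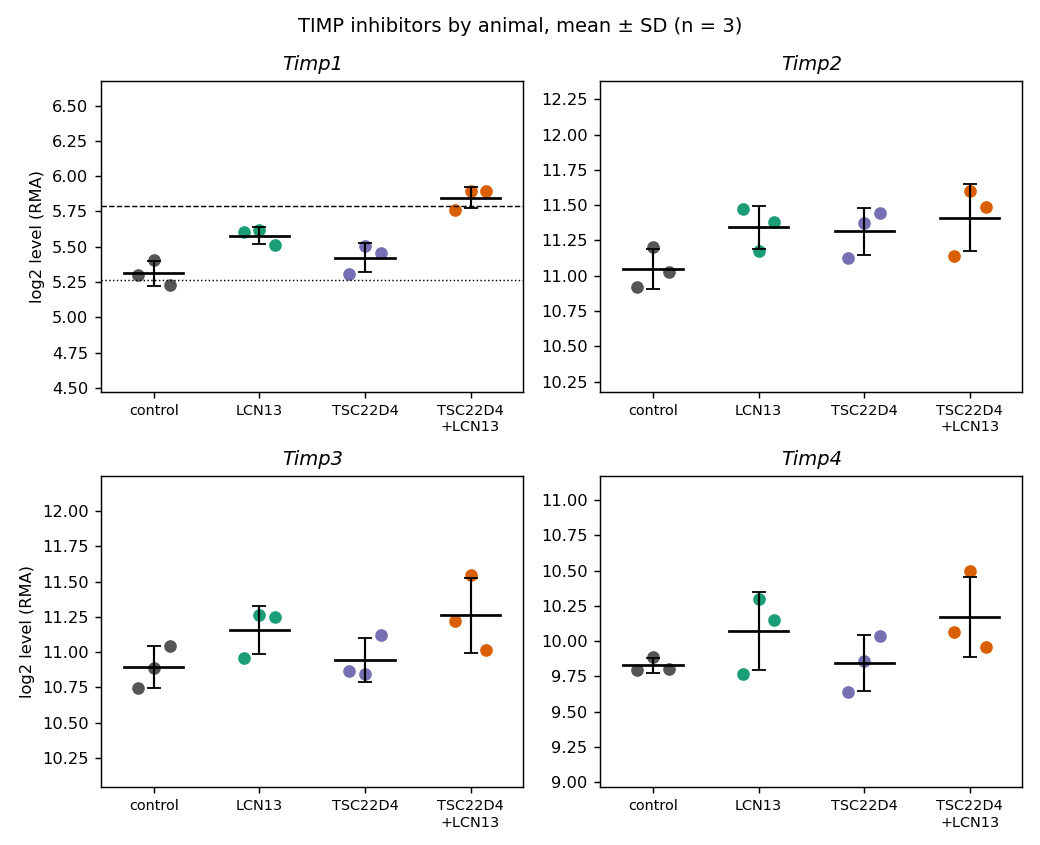
Log2 RMA level of the 4 Timp genes by animal in each shRNA group (points), with the mean and SD (n = 3 per group) as bars; the panels have equal spans. In the Timp1 panel the dotted and dashed lines are the 95th and 99th percentile of the receptor genes, and its 3 points with both viruses (5.76 to 5.89) lie above those of every other group.

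Mmp2, gelatinase A, is a protease of fibroblasts that cleaves gelatin and basement membrane collagen. It read 10.41, 10.95 and 10.64 in control, 11.13, 10.99 and 11.06 after LCN13 shRNA, 10.76, 11.14 and 11.08 after TSC22D4 shRNA, and 10.76, 11.53 and 11.20 after both. LCN13 shRNA animals were all above control, with the other groups overlapping it, and the difference of both viruses from control was 0.50 (SE 0.20, adjusted p = 0.184). Control animals 18 and 20, the lowest for Mmp2, were also those with the lowest tendon scores. Mmp9, gelatinase B of neutrophils and macrophages, read 5.44 to 5.67 across the 12 arrays and was −0.09 with both viruses against control (adjusted p = 0.294).

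Mmp14 is the membrane-bound enzyme that activates Mmp2 and cuts collagen at the cell surface. Its level was 7.00, 7.15 and 6.95 in control, 7.33, 7.21 and 7.10 after LCN13 shRNA, 7.21, 7.23 and 7.09 after TSC22D4 shRNA, and 6.81, 7.48 and 7.74 after both. Animal 29 was the lowest of all 12 and animal 32 the highest, so that the spread within the group with both viruses (SD 0.48) exceeded its difference from control (0.31, adjusted p = 0.409). Without animal 29 the difference became 0.57 (adjusted p = 0.0208).

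Mmp12 read 6.32, 6.30 and 6.13 in control, 6.96, 6.38 and 6.04 after LCN13 shRNA, 6.14, 6.18 and 6.43 after TSC22D4 shRNA, and 6.04, 7.25 and 6.51 after both. Its highest value was in animal 30, which had the highest score of the 12 for macrophage (0.73), tendon (0.48), fibroblast (0.55), smooth muscle (0.36), adipocyte (0.85) and Schwann cell (0.61) markers, and groups overlapped (both viruses minus control 0.35, adjusted p = 0.573). A pair of further Mmp genes near the floor had adjusted p-values below 0.1. Mmp19 was 5.74, 5.98 and 5.70 with both viruses and 5.49 to 5.64 in all other animals, with no overlap, and differed from control by 0.25 (adjusted p = 0.0703), from LCN13 shRNA by 0.23 (adjusted p = 0.0956) and from TSC22D4 shRNA by 0.25 (adjusted p = 0.273). Mmp28, epilysin, was 5.35, 5.44 and 5.33 in control and 5.54, 5.66 and 5.59 with both viruses, a difference of 0.22 (adjusted p = 0.0535). It was called without TSC22D4 animal 25 (adjusted p = 0.0328).

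Membrane-bound Mmp16 had the smallest p of the members for TSC22D4 shRNA against control, at 5.26, 5.33 and 5.31 in control and 5.38, 5.39 and 5.42 after TSC22D4 shRNA. The difference was 0.10 (adjusted p = 0.261) on a gene close to the floor. Mmp23 read 5.71, 5.73 and 5.65 in control and 5.88, 5.89 and 5.83 after LCN13 shRNA (0.17, adjusted p = 0.333). The rest of the Mmp genes above the floor, Mmp11, Mmp17, Mmp24 and Mmp25, had group means within 0.08 of each other at most.

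**Figure D3:**
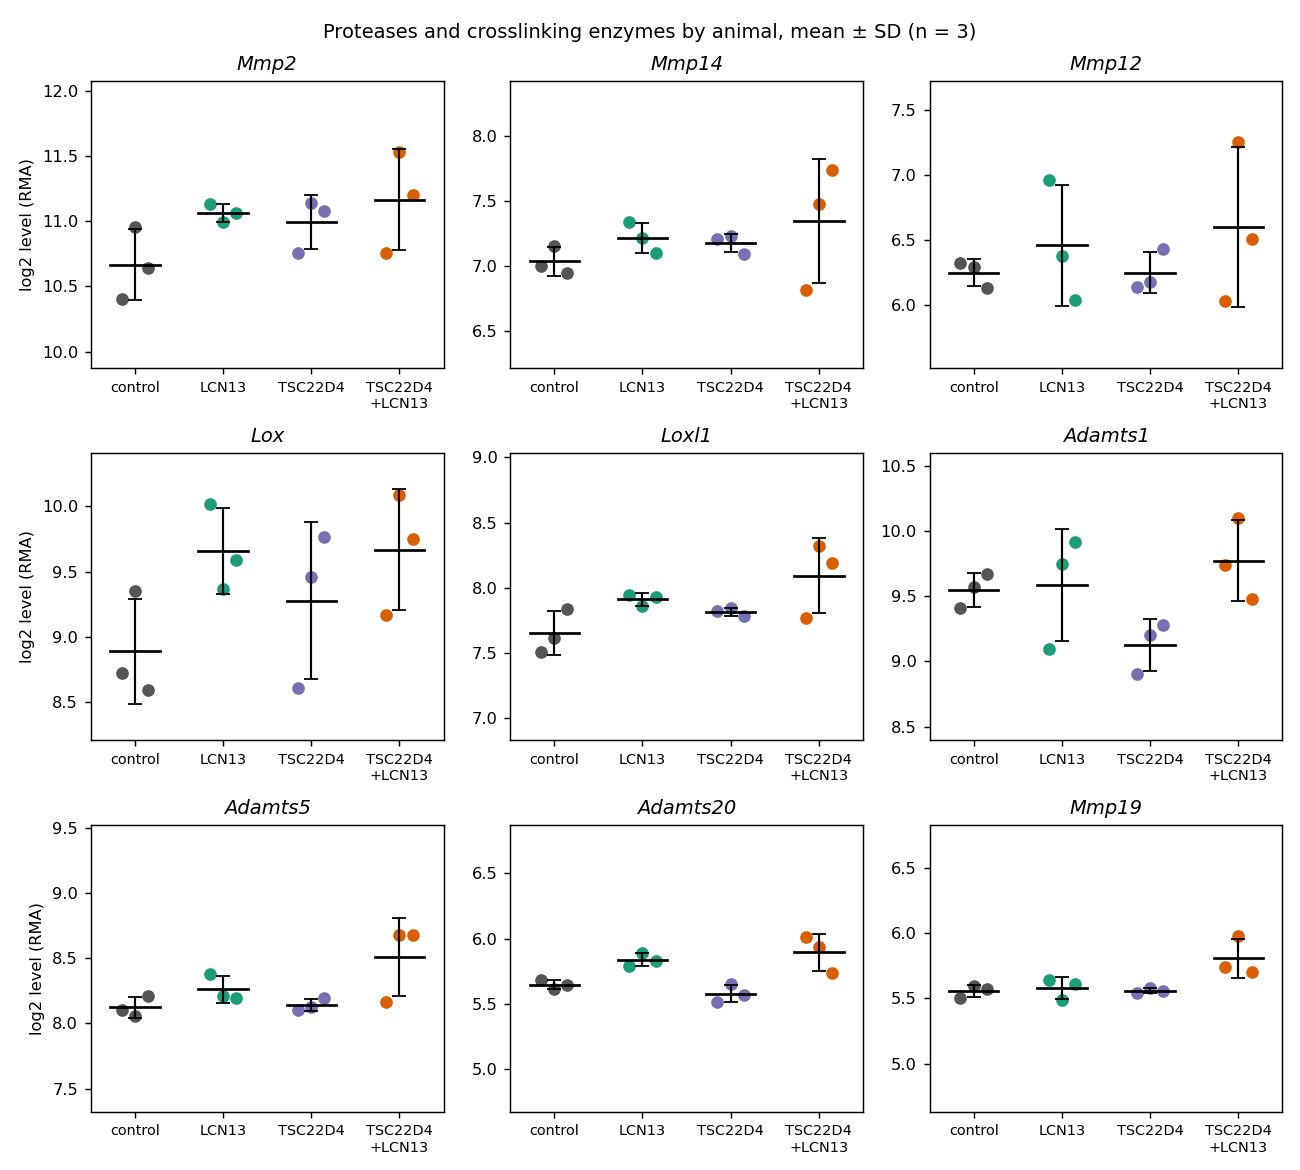
Log2 RMA level of 9 proteases and crosslinking enzymes by animal in each shRNA group (points), with the mean and SD (n = 3 per group) as bars. In the group with both viruses animal 29, drawn leftmost, was the lowest of the 3 for Mmp2, Mmp14, Mmp12, Lox, Loxl1 and Adamts5.

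Adamts1, Adamts5 and Adamts9 cleave aggrecan, versican and related proteoglycans. Adamts1 read 9.41, 9.57 and 9.67 in control, 9.10, 9.74 and 9.91 after LCN13 shRNA, 8.90, 9.20 and 9.28 after TSC22D4 shRNA, and 9.74, 10.10 and 9.48 after both. The TSC22D4 shRNA animals were all below the controls and below the animals with both viruses, with differences of −0.42 (SE 0.22, adjusted p = 0.624) from control and 0.64 (adjusted p = 0.352) for both viruses against TSC22D4 shRNA. That was the largest difference of a member in that comparison, and the interaction of 0.61 (adjusted p = 0.579) was the largest there as well; none passed.

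Adamts5, a neighbour of Adamts1 in RefSeq, read 8.10, 8.05 and 8.21 in control, 8.38, 8.21 and 8.19 after LCN13 shRNA, 8.10, 8.13 and 8.19 after TSC22D4 shRNA, and 8.16, 8.68 and 8.68 after both. Animal 29 lay at the level of control, and the difference from control was 0.38 (adjusted p = 0.113), or 0.56 (adjusted p = 0.00687) without that animal. Adamts9 read 7.45, 7.50 and 7.31 in control, 7.48, 7.83 and 8.05 after LCN13 shRNA, 7.02, 7.25 and 7.38 after TSC22D4 shRNA, and 7.23, 7.95 and 7.63 after both, with overlap between control and each group. Adamts20 was 5.68, 5.61 and 5.65 in control, 5.79, 5.89 and 5.83 after LCN13 shRNA, 5.52, 5.65 and 5.57 after TSC22D4 shRNA, and 6.01, 5.94 and 5.74 after both. Both groups with LCN13 virus lay above control without overlap (0.19, adjusted p = 0.241, and 0.25, adjusted p = 0.0645), while TSC22D4 shRNA animals overlapped it. Without animal 32 the difference of both viruses from control was called for Adamts20 (0.33, adjusted p = 0.0167). Adamts4, Adamts8 and Adamts15 stayed within 0.18 between group means.

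Adamts3 and Adamts14 remove the amino-terminal propeptide of procollagens. Adamts14 had the smallest p among members below 0 for both viruses against LCN13 shRNA, at 5.83, 5.72 and 5.78 after LCN13 shRNA and 5.65, 5.68 and 5.63 after both (−0.12, adjusted p = 0.0697). Adamts3 reached 6.05 in animal 32 and read between 5.54 and 5.77 on the other 11 arrays. Adamts12, which cleaves cartilage oligomeric matrix protein, read 6.86, 7.06 and 6.56 in control, 7.20, 7.04 and 7.02 after LCN13 shRNA, 6.95, 7.25 and 7.12 after TSC22D4 shRNA, and 6.90, 7.49 and 7.53 after both. Its difference between both viruses and control was 0.48 (adjusted p = 0.155), or 0.68 (adjusted p = 0.0348) without animal 29.

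Of the Adamts-like genes, which bind fibrillin-rich microfibrils, all 5 had a positive difference with both viruses against control, from 0.11 to 0.44, and 0 were called. Adamtsl4 read 7.91, 8.28 and 8.03 in control and 8.62, 8.73 and 8.19 with both viruses, with overlap (0.44, adjusted p = 0.265). After LCN13 shRNA Adamtsl5 was 0.24 (adjusted p = 0.199) and Adamtsl2 0.21 (adjusted p = 0.269) above control, in both cases without overlap of the animals. Without animal 32 Adamtsl2 was called for both viruses against control (0.32, adjusted p = 0.0227). Adamtsl1 went the other way after LCN13 shRNA, at 6.24, 6.42 and 6.41 against 6.47, 6.66 and 6.52 in control (−0.19, adjusted p = 0.455) and 6.55, 6.70 and 6.72 with both viruses (0.30 above LCN13 shRNA, adjusted p = 0.105).

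Lysyl oxidases crosslink the collagen that muscle fibroblasts and tendon cells lay down. Lox read 8.73, 9.35 and 8.59 in control, 10.01, 9.37 and 9.59 after LCN13 shRNA, 8.61, 9.46 and 9.77 after TSC22D4 shRNA, and 9.17, 10.09 and 9.75 after both. LCN13 shRNA animals were all above control, the lowest of them by little, and the other groups overlapped control. Lox had the largest difference from control of the 54 genes for LCN13 shRNA (0.77, SE 0.34, adjusted p = 0.401) and for both viruses (0.78, SE 0.34, adjusted p = 0.236). Its 3 lowest arrays, control animals 20 and 18 and TSC22D4 animal 25, were the 3 with the lowest tendon scores. Adjusted for the tendon score, the differences of Lox from control were −0.16 for LCN13 shRNA (adjusted p = 0.997), −0.26 for TSC22D4 shRNA (adjusted p = 0.836) and −0.19 for both viruses (adjusted p = 0.844), all opposite in sign to the unadjusted ones.

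Loxl1, needed for elastic fibres, read 7.51, 7.62 and 7.83 in control, 7.95, 7.86 and 7.93 after LCN13 shRNA, 7.83, 7.84 and 7.78 after TSC22D4 shRNA, and 7.77, 8.32 and 8.19 after both. The difference of both viruses from control was 0.44 (SE 0.13, adjusted p = 0.0843), or 0.60 (adjusted p = 0.0119) without animal 29. Loxl2 and Loxl3 gave 0.38 (adjusted p = 0.383) and 0.29 (adjusted p = 0.34) in the same comparison, and Loxl4 0.01 (adjusted p = 0.961). As a list, the 5 lysyl oxidases had a median difference from control of 0.15 after TSC22D4 shRNA, 0.26 after LCN13 shRNA and 0.38 after both, with 0 of 5 called in each.

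The same adjustment was applied to the other members named above, for both viruses against control. Loxl1 stood at 0.37 (adjusted p = 0.477), while Loxl2 (−0.11), Loxl3 (−0.10) and Loxl4 (−0.12) were below 0. Of the proteases that had been above control by the larger amounts, Mmp2 (0.01), Mmp14 (0.04), Mmp12 (−0.02) and Adamts12 (0.05) were close to 0, as was the inhibitor Timp2 (0.02). Timp3 (0.34), Timp4 (0.21), Mmp19 (0.17), Adamts5 (0.29) and Adamts20 (0.30) had values above 0.15. So did Adamtsl2 (0.23), Adamts4 (0.18), Adamts1 (0.17) and Adamtsl4 (0.16). None of these passed, and the part of tendon content in the unadjusted differences was not tested.

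**Figure D4:**
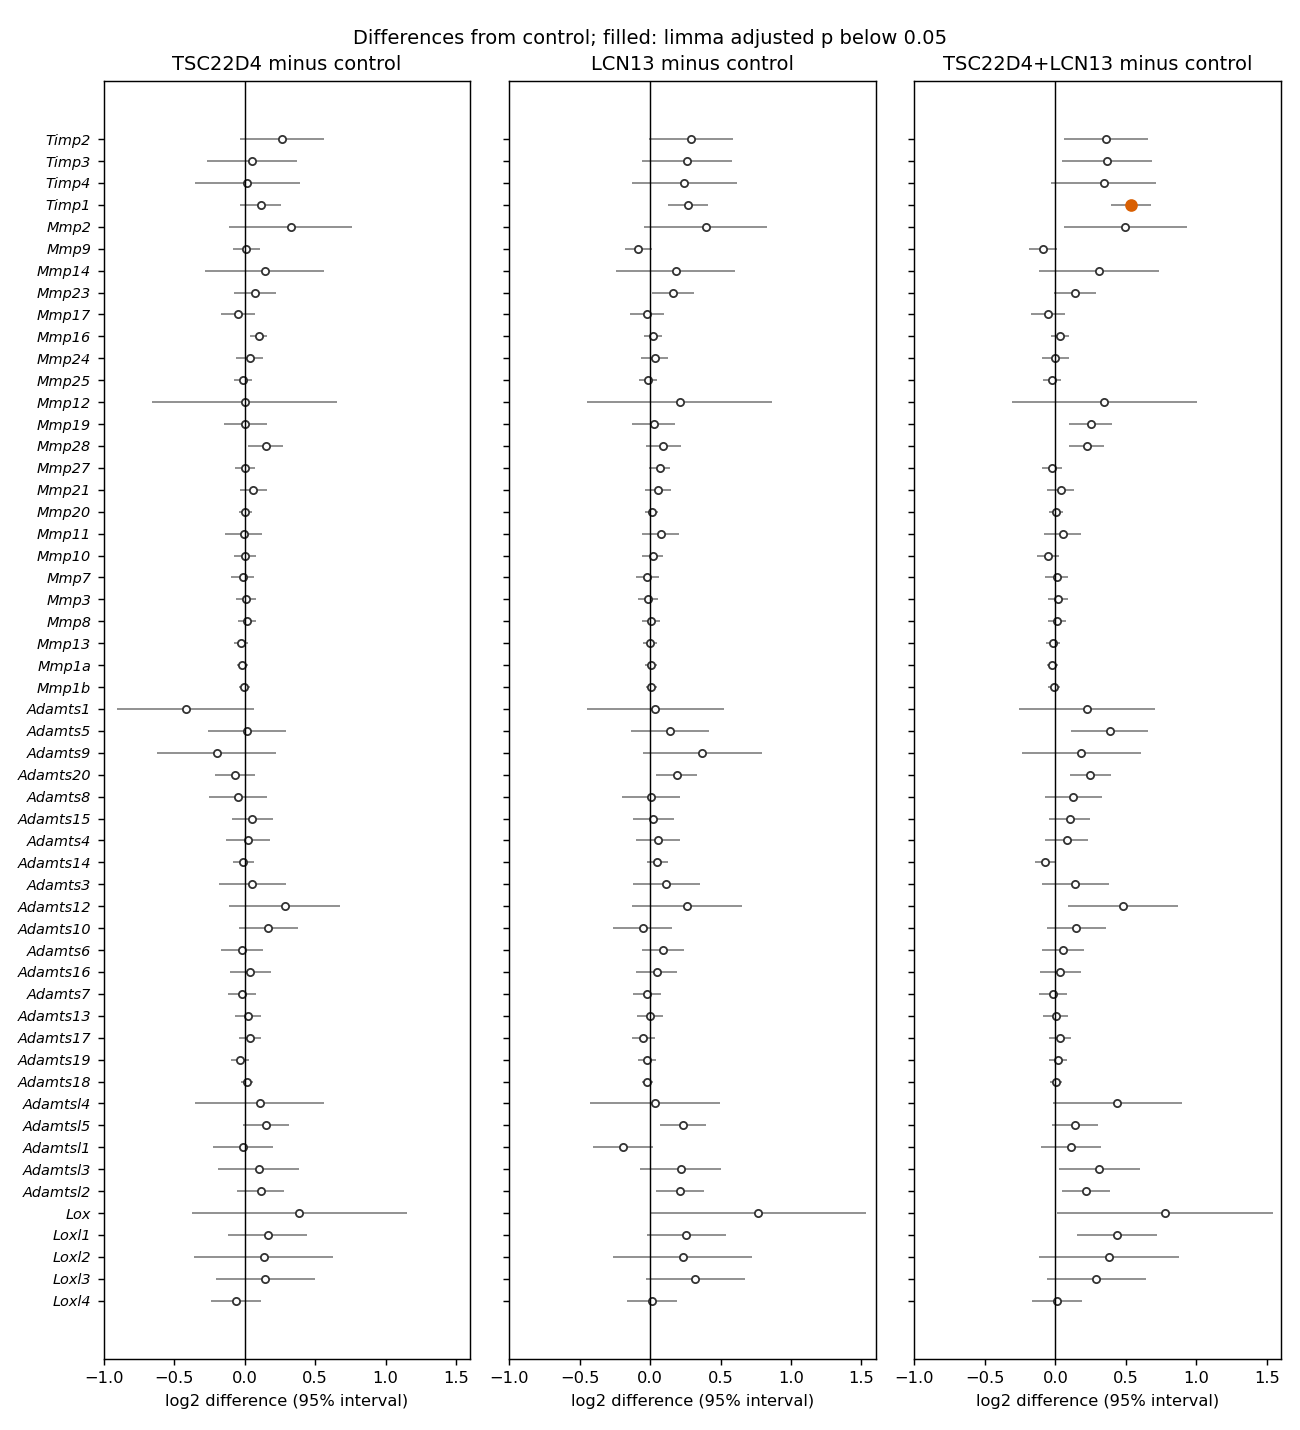
Fitted log2 difference from control (point) with its 95% interval (line) for the 54 genes in each shRNA group. The filled point is the 1 called member, Timp1 with both viruses; Lox and Mmp12 have the widest intervals, and the 12 genes at or below the floor sit close to 0.

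Counts over the whole set can be read against all genes. For TSC22D4 shRNA against control 0 of 54 were called by limma (0.336% of all genes), 2 had an unadjusted p below 0.05 (9.26%) and 37 had a difference above 0 (48.3%). For LCN13 shRNA against control these were 0 (0.85%), 6 (12.4%) and 42 (51.2%). For both viruses against control they were 1, 13 (20.4%) and 43 (46.6%), and all 13 were higher. The 3 comparisons share the control arrays, so the excess of positive differences in each is not a separate observation. The median difference over the 54 genes was 0.02, 0.05 and 0.10 for TSC22D4 shRNA, LCN13 shRNA and both, against −0.0019, 0.0014 and −0.0050 over all genes. With an array left out the members' medians ran from 0.0090 to 0.039, 0.029 to 0.069 and 0.057 to 0.15.

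Groups without overlap were counted as well. LCN13 shRNA animals lay above control for 11 members (9.74% of all genes) and below it for 3 (9.02%), TSC22D4 shRNA animals above for 1 (7.8%) and below for 2 (9.15%), and animals with both viruses above for 7 (9.48%) and below for 2 (14.3%). The 11 were Timp1, Mmp2, Mmp23, Mmp27, Adamts3, Adamts20, Adamtsl2, Adamtsl5, Lox, Loxl1 and Loxl3, and the 7 were Timp1, Timp4, Mmp19, Mmp23, Mmp28, Adamts20 and Adamtsl5. With the tendon score as a covariate the members with a positive difference numbered 23, 23 and 30 of 54 for TSC22D4 shRNA, LCN13 shRNA and both against control, and that fit called 34 genes in all for both viruses against control.

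In comparisons among treated groups, both viruses against LCN13 shRNA gave 4 members higher and 2 lower at an unadjusted p below 0.05 (20.9% of all genes), and against TSC22D4 shRNA 5 higher and 2 lower (10.5%). Differences above 0 numbered 34 of 54 (48% of all genes) and 35 of 54 (46.9%). The animals with both viruses lay above the LCN13 shRNA animals for 7 members (9.14% of all genes) and below them for 3 (13.4%). They lay above the TSC22D4 shRNA animals for 5 (5.87%), namely Timp1, Mmp19, Adamts1, Adamts20 and Adamtsl3, and below them for 2 (8.76%), Mmp9 and Mmp16. The interaction called 0 members by limma (0.125% of all genes), 4 had an unadjusted p below 0.05 (9.57%) and 25 of 54 were above 0 (48.1%). The spread within groups exceeded the range of the 4 group means for 14 of the 54 genes, among them 10 of the 42 above the floor.

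**Figure D5:**
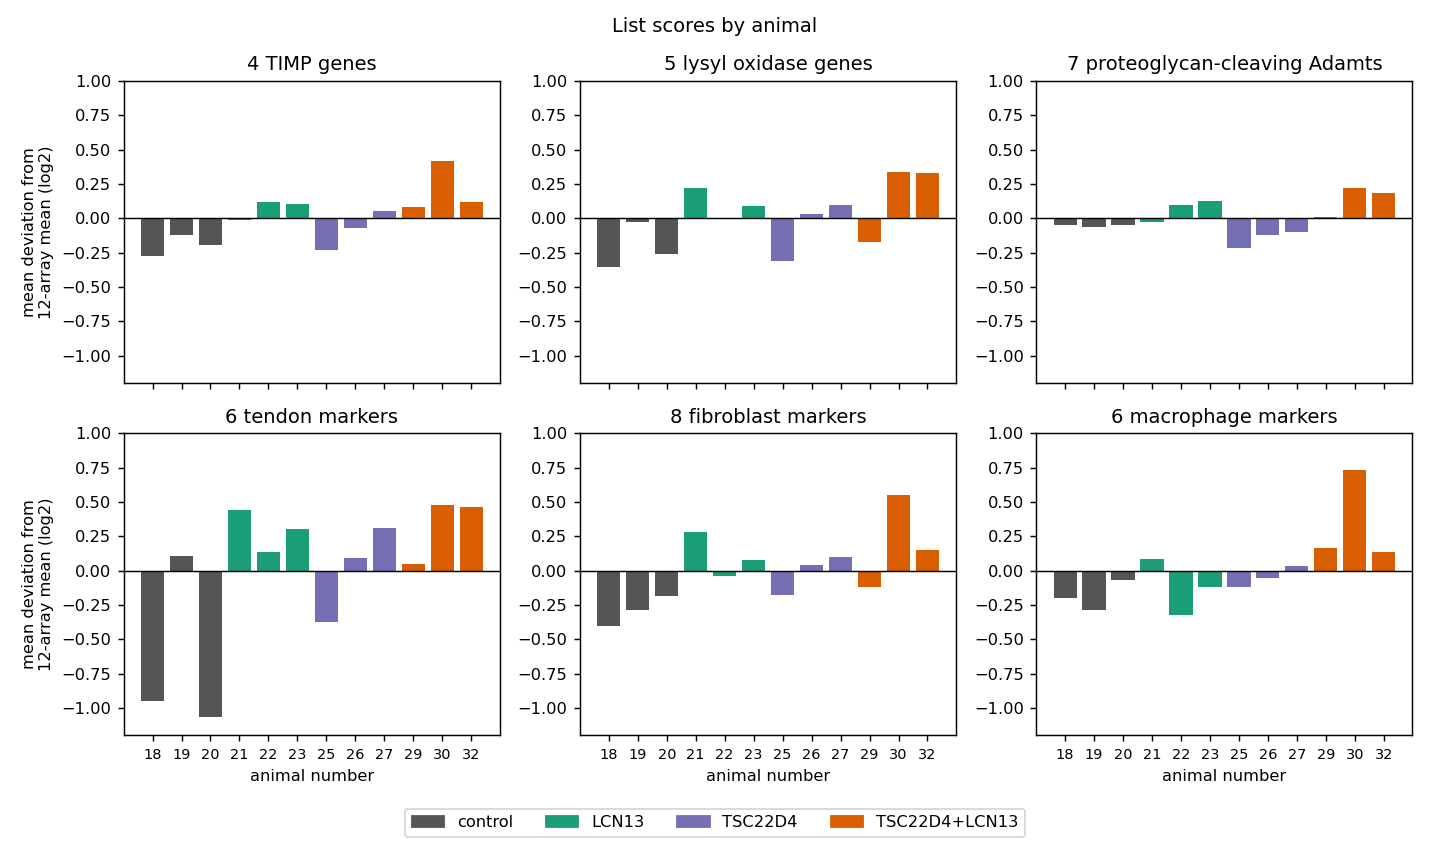
Mean log2 deviation from the 12-array mean per animal (bars, starting at 0) for 3 roles among the members (top) and 3 marker lists (bottom). Control animals 18 and 20 and TSC22D4 animal 25 are the lowest 3 for both the tendon and the lysyl oxidase list, and animal 30 is the highest for the macrophage (0.73) and Timp (0.42) lists.

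Scores per animal show the pattern of the members beside the marker lists. The lysyl oxidase score was −0.35, −0.03 and −0.26 in control animals 18, 19 and 20, 0.22, 0.01 and 0.09 after LCN13 shRNA, −0.31, 0.03 and 0.10 after TSC22D4 shRNA, and −0.17, 0.34 and 0.33 after both. The Timp score was −0.27, −0.12 and −0.19 in control, −0.01, 0.12 and 0.11 after LCN13 shRNA, −0.23, −0.07 and 0.05 after TSC22D4 shRNA, and 0.08, 0.42 and 0.12 after both. Within control the animal with the highest tendon score, 19, was also the highest for both of these lists. The part of tendon, fibroblast and macrophage content in these scores was not tested.

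Genes that act beside the set were read from lists of the pathway, which were chosen with earlier results of these data known. The counts therefore describe these lists and are not independent support for a change. Of 38 other matrix enzymes and regulators 6 were called higher and 0 lower with both viruses against control (1.72% and 2.62% of all genes), with a list median of 0.16. They were Pcolce (0.94, adjusted p = 0.0221), the enhancer of procollagen C-proteinase; Crtap (0.85, adjusted p = 0.0243) and P4ha1 (0.52, adjusted p = 0.0193), of collagen prolyl hydroxylation; Serpinh1 (0.66, adjusted p = 0.0414), the collagen chaperone; Fap (0.50, adjusted p = 0.0295), a fibroblast surface protease; and Plod2 (0.27, adjusted p = 0.00912), the lysyl hydroxylase that prepares collagen for crosslinks. Of 29 substrates 4 were called higher and 0 lower, with a median of 0.43. They were Col6a2 (0.82, adjusted p = 0.0324), Col6a3 (0.90, adjusted p = 0.0437), Lamb1 (0.43, adjusted p = 0.0113) and Nid1 (0.59, adjusted p = 0.0464). These calls do not single out a part of the matrix. Col4a1, of basement membrane, was not called, at 7.01, 7.35 and 7.32 in control and 6.89, 7.44 and 7.39 with both viruses. Col1a1 was not called either, at 9.28, 11.24 and 10.16 in control and 11.19, 12.05 and 12.32 with both viruses. Against LCN13 shRNA, both viruses gave 2 substrates called higher, Lamb1 (0.33, adjusted p = 0.0326) and Ncan (0.29, adjusted p = 0.0438), which held in 7 and 2 of the 12 fits with an array left out. None of the genes of either list was called for TSC22D4 shRNA or LCN13 shRNA against control.

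The substrate list shares Fmod and Comp with the tendon score, and Dcn, Lum, Col6a1 and Col15a1 with the fibroblast list, so the lists are not separate. With the tendon score as a covariate 0 of these 38 and 0 of these 29 genes were called for both viruses against control. Pcolce then stood at 0.47, Crtap at 0.41, Col6a3 at 0.47, Col6a2 at 0.39, Serpinh1 at 0.45, Fap at 0.36, Nid1 at 0.47 and Plod2 at 0.19. P4ha1 (0.51) and Lamb1 (0.39) were close to their unadjusted values. Adjusted p-values of these 10 genes ran from 0.178 to 0.497. Plod2 and Lamb1 kept their call in each of the 12 fits with an array left out, Col6a3 and Nid1 in 2, Serpinh1 in 3 and the rest in 8 or 9. Of 16 genes of the transforming growth factor beta axis, which is known to drive Timp1 and Lox, 0 were called in the 6 comparisons, and the list median for both viruses against control was 0.04.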

How the data were processed

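RNA of gastrocnemius from 12 mice was hybridised to 1-colour Affymetrix arrays, per the labels' protocols. The deposited values are on a log2 scale, made by the authors with RMA per the submitters' processing notes. The labels name no RMA version, probe set design or genome build. The file holds 25206 probe sets, of which 23185 have 1 gene symbol in the supplied annotation and were tested; 2021 without one entered an alternative. Values ran from 4.78 to 14.09, and correlations between arrays from 0.990 to 0.998.

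A linear model in limma 3.58.1 (lmFit and eBayes, R 4.3.3) with 4 group means was fitted to all 12 arrays and gave 6 comparisons and a moderated F test. Two-sided p-values received Benjamini-Hochberg adjustment across the 23185 genes, and a gene was called at an adjusted p below 0.05. No filter or pseudocount was applied, and the fit was checked on simulated data. The animals are separate mice; the labels give no batch or date. Precision is limited by the number of arrays.

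The members, pathway lists and marker lists were chosen with earlier results of these data known. Named genes were members above the floor, members called in any test, and in each comparison the 3 with the largest absolute difference and the 2 with the smallest p. Alternatives were all probe sets, genes above the median level, trend and robust eBayes, quantile normalization, median centring, array weights, compared arrays alone, tendon and hepatocyte scores as covariates, other floors, and each array left out in turn. RefSeq promoter windows (GRCm38.p6) were searched on both strands for motifs. RefSeq named the neighbours and overlapping genes.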

Additional observations from a re-analysis of the deposited data

How the results depend on the processing

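No paired analysis was possible because animal numbers differ between the groups. The count of members called was 0 under every alternative run for TSC22D4 shRNA and for LCN13 shRNA against control, for both viruses against TSC22D4 shRNA and for the interaction. For both viruses against control it was 1, and became 2 among genes above the median level, 2 with trend and robust eBayes, 3 adjusted for the hepatocyte score and 0 adjusted for the tendon score; with an array left out it ranged from 1 to 5, with 5 without animal 29, 3 without animal 32 and 2 without animal 25. For both viruses against LCN13 shRNA the 1 call became 0 with array weights, the hepatocyte score or the compared arrays alone, and 0 to 1 with an array left out; without animal 29 the 1 member called was Adamts5 (0.42, adjusted p = 0.0246) and not Timp1. The F test called 1 member, and 2 among genes above the median level, with trend and robust eBayes or with array weights, and 1 to 3 with an array left out. The fit with the tendon score called 34 genes in all for both viruses against control. For the other fits the share of all genes called is not given here, so their counts are not a result about the members.

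The median difference of the members moved most among genes above the median level, a fit with fewer members, to 0.063 for TSC22D4 shRNA, 0.19 for LCN13 shRNA and 0.25 for both against control, 0.17 for both against TSC22D4 shRNA and 0.10 against LCN13 shRNA. Adjusted for the tendon score it was −0.017, −0.017 and 0.0096 against control, 0.030 for both against TSC22D4 shRNA and 0.057 for the interaction; the median SE of members above the floor rose from 0.08 to 0.11 for both against control in that fit. With an array left out the median ran from 0.057 to 0.15 for both against control, from 0.027 to 0.087 against TSC22D4 shRNA and from 0.0070 to 0.035 against LCN13 shRNA, and for the interaction from −0.018 to 0.010. Members at or below the floor numbered 31 with the 99th percentile of the receptor genes, 5 with the 25th percentile of all genes and 22 with their median. For the 42 named members, 14 calls were lost and 12 gained, and no value that passed had turned its sign. Among values that did not pass, the sign differed from the reported one in 63 of 252 adjusted for the tendon score (Lox among them), 230 of 3024 with an array left out and 44 of 1914 under the other alternatives. The called pathway and marker genes lost 122 calls over 315 values and 0 turned.

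Signal close to background limits the low members: 12 are at or below the floor, where differences near 0 say little about the transcript. With 3 animals a group, differences of the size seen for Lox or Mmp2 were not separable from the spread between animals. The causes of the changes with the covariates were not tested.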
